A study of Homo sapiens with 6 samples.

Results

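Solute carriers are membrane proteins that move small molecules and ions across the plasma membrane or the membranes of organelles, and they were examined here in cells depleted of PSF. The members were 203 protein-coding genes with an SLC family symbol (SLC, a family number, A and a member number, or SLC35 with a letter from A to F) and a mean of at least 1 CPM (a gene's share of all counts of a library, scaled to a common total) over the siControl libraries, of 250 protein-coding genes with such a symbol and 21301 genes in the deposited table. The genes were thus selected on their measured siControl level, which is a description and not a result. The amine transporter genes SLC18A1, SLC18A2 and SLC6A2, 3 in all, were left out by name. PSF, also called SFPQ, is a nuclear protein that binds DNA and RNA. In SH-SY5Y, an established human neuroblastoma cell line, 3 cultures were treated with a control siRNA (siControl) and 3 with an siRNA against PSF (siPSF), each at 10 nM for 72 h by lipofection, with RNA-seq of poly(A)-selected RNA. Both groups share the cell line, the transfection, the dose and the time, and knockdown rested on 1 siRNA sequence, so effects of PSF loss and of that sequence cannot be told apart.

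Solute carriers are numbered by family, and members of a family usually share a fold and a kind of substrate but differ in tissue, organelle and affinity. Most are secondary active transporters that use gradients of sodium, protons or chloride, while others exchange one solute for another or let a solute run down its own gradient. Neurons rely on them for the uptake of transmitters and amino acids, for calcium extrusion, and for the supply of sugars, metals, choline and nucleotide sugars. The SLC25 family sits mainly in the inner mitochondrial membrane and carries nucleotides and metabolites.

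Library totals ran from 101540520 to 132420931 counts. SFPQ stood at 372, 356 and 401 CPM under siControl and at 209, 193 and 165 CPM under siPSF, so all siPSF libraries lay below all siControl libraries. Its log2 fold change was -0.99 ± 0.10 (SE, 3 against 3, adjusted p = 9.51e-05, Benjamini-Hochberg over edgeR's quasi-likelihood test). Of 10 noradrenergic neuroblastoma markers all were tested, with a summed level of 5322 to 6161 CPM in siControl and 4739 to 5854 CPM in siPSF, though TH, the first enzyme of catecholamine synthesis, was at only 0.741 CPM in siControl. GATA3 rose (0.30) while DBH (-0.68) and TH (-1.20) fell on the log2 scale. The tested glial (2 of 5), macrophage (2 of 5) and epithelial (3 of 4) markers summed to at most 5.58 CPM in any library, and EPCAM rose (0.86). The 5 fibroblast markers summed to 59.0 to 71.2 CPM in siControl and 41.2 to 46.3 CPM in siPSF, where COL3A1 (-0.71) and PDGFRA (-0.60) fell. PDGFRA, at a mean of 55.2 CPM in siControl, held most of the fibroblast sum. COL1A1 (0.55), COL1A2 (-0.12) and DCN (-0.20) were not called by edgeR, and DESeq2 called 1 of the 5 higher. Of 8 mesenchymal neuroblastoma markers, 6 were tested and summed to 95.9 to 100.2 CPM in siControl and 73.8 to 84.1 CPM in siPSF. FN1 fell (-0.60) and at a mean of 78.7 CPM in siControl held most of that sum, while the other 5 mesenchymal markers were not called, at 0.07 (FOSL2) to 0.83 (FOSL1), and the list's median was 0.37. The part of these other lists in the solute carrier changes was not tested.

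Of the 203 solute carriers, all passed the filter on low counts, 14 rose and 14 fell after PSF knockdown at an adjusted p under 0.05. That is 13.8% of the members, beside 14.9% of all 19694 genes tested, 15.3% of the protein-coding genes tested and 16.1% of those at 1 CPM or more in siControl. In each direction it is 6.90% of the members, where 6.65% of all genes rose and 8.27% fell, 6.72% of protein-coding genes rose and 8.58% fell, and 6.9% of protein-coding genes at 1 CPM or more rose and 9.22% fell. The members' median log2 fold change was 0.0031, against 0.0097 over all genes tested and 0.0082 over the protein-coding genes at 1 CPM or more. The libraries of the 2 groups did not overlap for 60 members (29.6%), with siPSF above siControl in 29 and below in 31; the background is 34.4% of all genes tested, 34.5% of the protein-coding genes and 35.7% of the protein-coding genes at 1 CPM or more. All 28 called members were among those 60. A fall of more than 2-fold was called for 5 members (2.46%) and a rise of more than 2-fold for 0, beside 190 falls (1.501%) and 23 rises (0.182%) among the 12656 protein-coding genes at 1 CPM or more. An unadjusted p under 0.05 from edgeR was found for 57 members (28.1%) and 29.8% of all genes tested. DESeq2 called 19 members higher and 19 lower (18.7%), beside 18.4% of the genes for which it gave an adjusted p. CPM below are normalised with TMM factors, and in bulk RNA fewer cells of a kind and less RNA per cell cannot be told apart.

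The counts of calls moved with the libraries and the fit used, among the members as over the whole table. Without siControl replicate 2, 6 members rose and 9 fell (7.39%, beside 7.54% of all genes tested). Without siControl replicate 3, 7 rose and 13 fell (9.85%, beside 8.82% of all genes). A limma fit on the deposited FPKM (fragments scaled to exon length and mapped reads), which differs in unit, test and filter and held 194 of the members, gave 6 higher and 17 lower (11.9%, beside 17.0% of all genes). After rescaling each library's FPKM to a common total it gave 3 higher (1.55%, beside 3.12% of all genes) and 46 lower (23.7%, beside 23.0%). That rescaling moved the median of all genes to -0.16 and of the members to -0.18, a difference of -0.02, so directions below are relative to the bulk of genes. Of the 28 called members, 15 kept their call when each library was left out in turn, 9 of them lower and 6 higher.

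**Figure D1:**
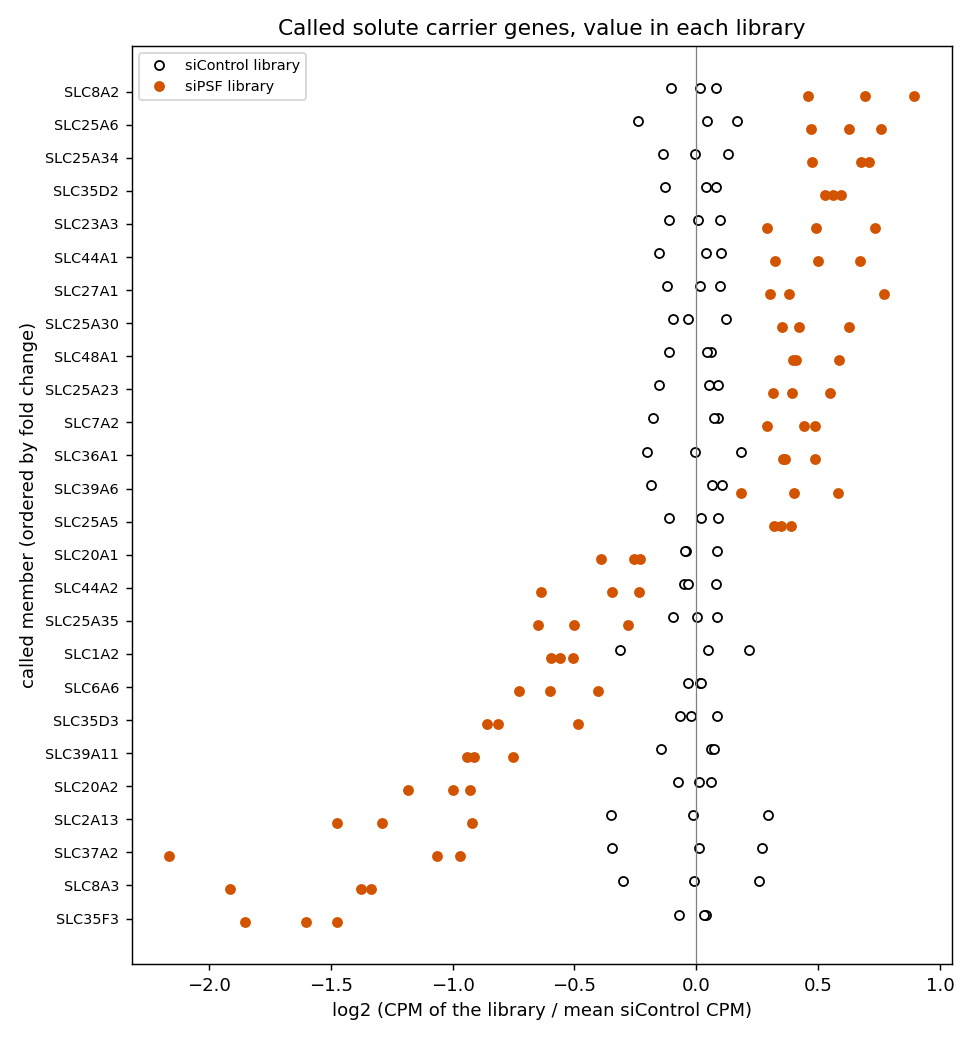
The log2 ratio of each library's CPM to the mean siControl CPM, for 26 called members ordered by fold change, with siControl libraries as open and siPSF libraries as filled points. In each gene the 3 siPSF points lie wholly on one side of the 3 siControl points, and fold changes run from -1.63 for SLC35F3 to 0.69 for SLC8A2 on the log2 scale.

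The called members were spread over 17 of 46 families. By substrate class, the called share was 22.2% for ions, 16% for organic ions, lipids and vitamins, and 15.4% for mitochondrial carriers. It was 12% for nucleosides and nucleotide sugars, 11.4% for amino acids and neurotransmitters, 11.1% for metals and 8% for sugars and monocarboxylates. Over all genes tested it was 14.9%. In 5 families, members moved in opposite directions: SLC8, SLC25, SLC35, SLC39 and SLC44. Both members of SLC20 fell. In the 24 families with 3 or more members, the member with the highest FPKM was called in 3, namely SLC25A6, SLC44A2 and SLC8A3.

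**Figure D2:**
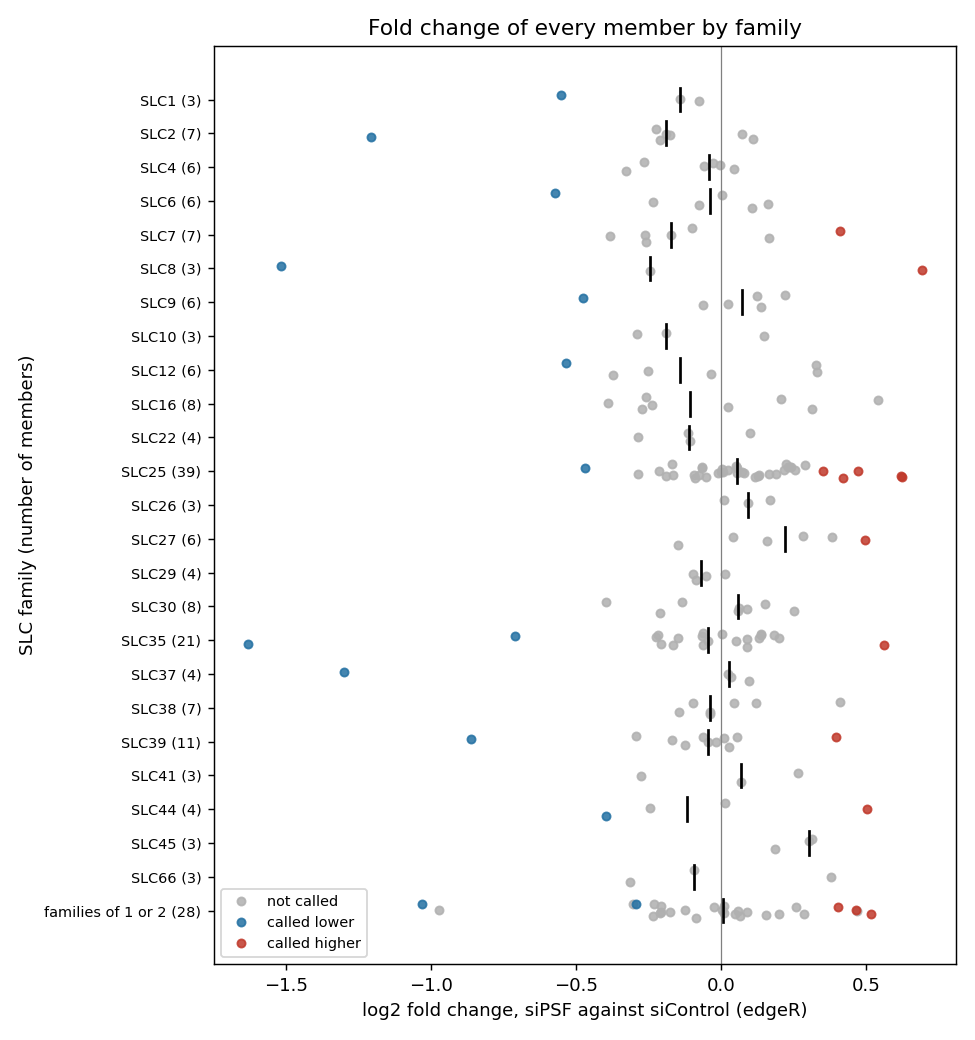
The log2 fold change (siPSF against siControl, edgeR) of every member, a point each, in rows for the 24 families of 3 or more members and 1 row for the smaller families, coloured by call, with a black bar at each row's median. Points are spread vertically for legibility, SLC35 holds the lowest at -1.63 and SLC8 the highest at 0.69, and most members lie near 0.

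Among transporters of ions, 1 of 27 members rose and 5 fell, with a median log2 fold change of -0.03 that ran from -0.10 without siControl replicate 3 to -0.04 without siControl replicate 2 when 1 library was left out. The sodium/calcium exchangers of the SLC8 family, which export calcium from neurons, moved in opposite directions. SLC8A3 (NCX3; chr14:70044215-70189405, GRCh38) had 42.8, 52.4 and 63.1 CPM in siControl and 20.9, 20.3 and 14.0 CPM in siPSF. Every siPSF library was below a value of 21 CPM and every siControl library above 42 CPM. The log2 fold change of SLC8A3 was -1.52 ± 0.16 (SE, adjusted p = 0.000163, edgeR). SLC8A2 (NCX2; chr19:47428017-47471893) had 9.93, 9.50 and 8.75 CPM in siControl and 12.9, 15.2 and 17.5 CPM in siPSF. All siPSF libraries were the higher, and the log2 fold change was 0.69 ± 0.13 (adjusted p = 0.00377, edgeR). On rescaled FPKM the call of SLC8A2 was lost (0.33, adjusted p = 0.068, limma), while that of SLC8A3 was kept. SLC8A1 (NCX1), the form known from heart, had 0.673 to 1.09 CPM in the 6 libraries and was not called (log2 fold change -0.25).

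In FPKM, which allow levels of different genes to be set side by side, SLC8A3 made up 82.0% ± 3.7 of the summed SLC8 level in siControl (SD, n = 3) and 50.0% ± 10.0 in siPSF. SLC8A2 made up 17.5% ± 3.6 and 49.1% ± 9.8. The summed level was 11.6 ± 2.0 FPKM in siControl and 5.83 ± 0.35 FPKM in siPSF, with no overlap between libraries. SLC8A3 led in all siControl libraries and in siPSF replicates 1 and 2, and SLC8A2 led in siPSF replicate 3.

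Both sodium/phosphate cotransporters fell. SLC20A2 (PiT2), a phosphate importer whose loss is known in brain calcification, had 28.0, 29.7 and 30.7 CPM in siControl and 14.8, 15.5 and 13.0 CPM in siPSF. The groups were separated by a wide gap, and its log2 fold change was -1.03 ± 0.10 (adjusted p = 8.54e-05, edgeR). SLC20A1 (PiT1) had 152, 139 and 139 CPM in siControl and 120, 122 and 109 CPM in siPSF, a log2 fold change of -0.29 ± 0.08 (adjusted p = 0.0344). The smaller fall of the more abundant PiT1 left SLC20A2 with 9.30% ± 0.18 of the summed SLC20 FPKM in siPSF, against 15.3% ± 1.2 in siControl. SLC20A1 kept its call only without siControl replicate 3, and its adjusted p was 0.057 to 0.12 in the other leave-one-out fits.

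None of the 6 bicarbonate transporters of SLC4 was called by edgeR (2 at an unadjusted p under 0.05, 1 called lower by DESeq2), with SLC4A2, the most abundant, at -0.06 (95% interval -0.27 to 0.15).

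Of the 39 mitochondrial carriers of SLC25, 5 rose and 1 fell, 15.4% called beside 14.9% of all genes tested. Their median was 0.05 (0.03 without siPSF replicate 3 to 0.09 without siPSF replicate 1). The family's most abundant members, the adenine nucleotide translocases that exchange ADP for ATP, were among those that rose. SLC25A6 (ANT3; chrX:1386152-1392113) had 528, 485 and 399 CPM in siControl and 651, 726 and 796 CPM in siPSF. SLC25A5 (ANT2; chrX:119468444-119471396) had 202, 212 and 184 CPM in siControl and 248, 261 and 254 CPM in siPSF. For both, the lowest siPSF library was above the highest siControl library. Their log2 fold changes were 0.62 ± 0.11 (adjusted p = 0.00359, edgeR) and 0.35 ± 0.08 (adjusted p = 0.0145). On rescaled FPKM, SLC25A5 lost its call (0.16, adjusted p = 0.057, limma) and SLC25A6 kept its call. SLC25A4 (ANT1), the form known from heart and muscle, was at -0.01 and was not called. The summed level of the 3 translocases was 454 ± 41 FPKM in siControl and 622 ± 41 FPKM in siPSF, and SLC25A6 made up 66.3% ± 2.2 and 70.7% ± 1.9 of it. These genes are closely alike in sequence, so reads may be split between them, and 13.2% of the exonic bases of SLC25A5 overlap its antisense gene SLC25A5-AS1.

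The promoters of the pair that rose together are shown because both genes are abundant and moved in the same direction. The 250 bases before the RefSeq start are given 5′ to 3′ on the gene's strand in GRCh38.p14, at chrX:119468194-119468443 (plus) for SLC25A5 and chrX:1392114-1392363 (minus) for SLC25A6. Capitals mark motifs found on either strand. The GC box was searched as GGGCGG. The box named CCAAT was searched by those letters, and the TATA box as TATAAA.
SLC25A5: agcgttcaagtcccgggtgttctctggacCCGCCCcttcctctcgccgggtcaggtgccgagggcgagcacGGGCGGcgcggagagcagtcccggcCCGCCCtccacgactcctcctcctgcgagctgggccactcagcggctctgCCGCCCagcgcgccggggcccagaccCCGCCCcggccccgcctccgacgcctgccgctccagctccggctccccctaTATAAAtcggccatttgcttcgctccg
SLC25A6: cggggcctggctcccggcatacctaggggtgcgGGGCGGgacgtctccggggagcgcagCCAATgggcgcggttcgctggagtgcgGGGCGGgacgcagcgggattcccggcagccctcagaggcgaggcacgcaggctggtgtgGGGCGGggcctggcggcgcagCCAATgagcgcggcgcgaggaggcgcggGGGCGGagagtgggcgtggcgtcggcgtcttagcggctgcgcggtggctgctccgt
SLC25A5 held 5 GC boxes and 1 TATA box and was 73.6% G and C, while SLC25A6 held 4 GC boxes and 2 CCAAT boxes and was 76.8% G and C. Over all 27305 promoters of that table, 42.3% held a GC box, 33.0% a CCAAT box and 11.1% a TATA box. For the protein-coding genes tested these shares were 66.3%, 34.4% and 5.59%.

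The other carriers that rose were less abundant. SLC25A34, an orphan carrier, had 5.81, 6.99 and 6.37 CPM in siControl and 8.87, 10.4 and 10.2 CPM in siPSF, a log2 fold change of 0.62 ± 0.12 (adjusted p = 0.00617, edgeR). SLC25A23, a calcium-regulated carrier that exchanges ATP-magnesium for phosphate, had 40.7, 39.7 and 34.5 CPM in siControl and 47.6, 50.3 and 55.9 CPM in siPSF. It rose by 0.42 on the log2 scale, without overlap of the groups. SLC25A30 (KMCP1) had 5.42, 4.65 and 4.86 CPM in siControl and 6.67, 7.68 and 6.35 CPM in siPSF, a log2 fold change of 0.47 ± 0.13. The only SLC25 member that fell was SLC25A35, an orphan carrier close to SLC25A34, with 8.82, 9.35 and 8.24 CPM in siControl and 7.26, 6.21 and 5.61 CPM in siPSF. Its log2 fold change was -0.47 ± 0.13, and 28.7% of its exonic bases overlap RANGRF on the opposite strand, which was at -0.11. On FPKM by limma, SLC25A34 and SLC25A30 lost their calls with and without rescaling, and SLC25A23 lost its call on rescaled FPKM. With libraries left out in turn, SLC25A34 kept its call throughout. SLC25A23 lost its call without siControl replicate 2 (adjusted p = 0.051) or siControl replicate 3 (adjusted p = 0.054). SLC25A30 kept its call only without siControl replicate 1 or siPSF replicate 3 (0.072 to 0.14 in the other fits), and SLC25A35 only without siPSF replicate 1 (0.055 to 0.12 in the others, all adjusted p from edgeR).

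Of 25 members of SLC29 and SLC35, families known for nucleosides and nucleotide sugars, 1 rose and 2 fell, all from SLC35, with a median of -0.05 (-0.07 without siPSF replicate 2 to -0.00060 without siPSF replicate 3). The best known SLC35 members supply the Golgi apparatus and the endoplasmic reticulum with sugar donors, but neither gene that fell is an established carrier of them. SLC35F3 (chr1:233904676-234324511), reported as a thiamine transporter, had 11.7, 12.7 and 12.6 CPM in siControl and 4.44, 4.06 and 3.42 CPM in siPSF. Its groups were each tight and far apart, and its log2 fold change was -1.63 ± 0.13 (adjusted p = 3.46e-05, edgeR), the largest fall among the members. SLC35D2, a Golgi transporter of UDP-N-acetylglucosamine, had 17.4, 20.1 and 19.5 CPM in siControl and 28.0, 28.7 and 27.4 CPM in siPSF. Its change was 0.56 ± 0.10 on the log2 scale (adjusted p = 0.00245). Its relative SLC35D3, an orphan of the same branch, had 9.19, 9.47 and 10.2 CPM in siControl and 5.48, 5.31 and 6.88 CPM in siPSF, a log2 fold change of -0.71 ± 0.13 (adjusted p = 0.00399). In FPKM, SLC35D2 went from 59.5% ± 1.7 to 73.8% ± 1.4 of the summed SLC35D level and SLC35D3 from 21.1% ± 0.7 to 11.1% ± 1.7. Of the exonic bases of SLC35D2, 46.9% lie in another annotated gene on the same strand, so its reads cannot be told apart from that gene's there. None of the 4 equilibrative nucleoside transporters of SLC29 was called by edgeR or DESeq2 or had an unadjusted p under 0.05, and SLC29A1 was at 0.01 (95% interval -0.19 to 0.22).

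**Figure D3:**
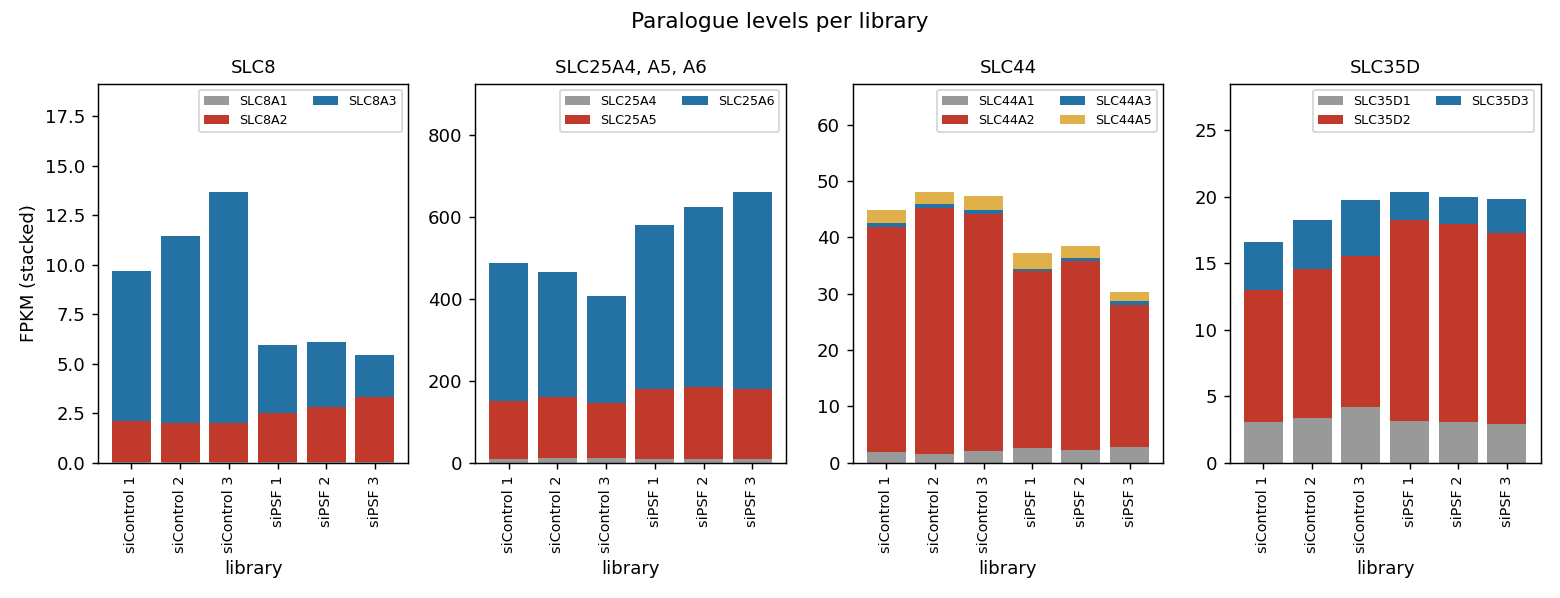
Stacked bars, starting at 0 and each panel with its own scale, of the FPKM of related members in each of the 6 libraries for the SLC8 exchangers, the adenine nucleotide translocases, SLC44 and SLC35D. The SLC8 sum goes from a mean of 11.6 to 5.83 FPKM with a smaller SLC8A3 segment, and the translocase sum from 454 to 622 FPKM.

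Among carriers of metals and heme, 2 of 27 members rose and 1 fell, with a median of 0.01 (-0.02 without siControl replicate 3 to 0.03 without siPSF replicate 3). The zinc importers of SLC39 moved in both directions, and the 8 zinc exporters of SLC30 were not called by edgeR (1 at an unadjusted p under 0.05, 1 called lower by DESeq2). SLC39A11 (ZIP11; chr17:72645949-73092688), a zinc transporter of the Golgi and nucleus, had 13.1, 11.3 and 13.2 CPM in siControl and 7.45, 6.67 and 6.53 CPM in siPSF. All siPSF libraries lay well below siControl, with a log2 fold change of -0.86 ± 0.12 (adjusted p = 0.000631, edgeR). SLC39A6 (ZIP6), a plasma membrane zinc importer, had 130, 106 and 127 CPM in siControl and 160, 137 and 181 CPM in siPSF. It rose by 0.40 on the log2 scale, with a narrow gap between its groups. SLC48A1 (HRG1), which moves heme out of the lysosome, had 52.4, 51.8 and 46.5 CPM in siControl and 66.1, 75.5 and 66.7 CPM in siPSF, and its log2 fold change was 0.47 ± 0.09 (adjusted p = 0.00537). When 1 library was left out, SLC39A6 kept its call only without siControl replicate 1 or siPSF replicate 2, with an adjusted p of 0.066 to 0.16 in the other fits. It also lost its call on FPKM by limma with and without rescaling, while SLC39A11 and SLC48A1 kept theirs. SLC39A1, the most abundant zinc importer, was at -0.05 (95% interval -0.23 to 0.14) and was not called.

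The promoters of the zinc importers that moved apart are shown for comparison of their base content, from chr17:73092689-73092938 (minus) for SLC39A11 and chr18:36129341-36129590 (minus) for SLC39A6, with GC boxes and the E-box CACGTG in capitals.
SLC39A11: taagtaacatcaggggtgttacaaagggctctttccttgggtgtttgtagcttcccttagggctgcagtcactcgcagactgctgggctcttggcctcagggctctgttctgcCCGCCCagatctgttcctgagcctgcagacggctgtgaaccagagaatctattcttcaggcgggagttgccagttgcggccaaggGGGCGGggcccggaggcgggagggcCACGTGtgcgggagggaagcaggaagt
SLC39A6: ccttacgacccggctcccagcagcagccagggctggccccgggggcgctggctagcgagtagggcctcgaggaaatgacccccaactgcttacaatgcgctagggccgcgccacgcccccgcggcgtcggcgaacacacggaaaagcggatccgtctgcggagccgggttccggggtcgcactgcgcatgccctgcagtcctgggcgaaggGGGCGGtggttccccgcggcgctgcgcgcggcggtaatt
SLC39A11 had 60.4% G and C, 10 CpG, 2 GC boxes and 1 E-box. An E-box was held by 6.49% of all promoters of the table, 8.89% of the protein-coding genes tested and 10.9% of the members. SLC39A6 had 71.6% G and C, 32 CpG and 1 GC box.

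Of 25 carriers of organic ions, lipids and vitamins, 3 rose and 1 fell, with a median of 0.04 (-0.0039 without siControl replicate 2 to 0.09 without siPSF replicate 3). The choline transporter-like genes of SLC44, which supply choline for membrane lipids, moved apart. SLC44A2 (CTL2), the most abundant of them, had 146, 160 and 147 CPM in siControl and 119, 128 and 97.0 CPM in siPSF, and its log2 fold change was -0.40 ± 0.10. SLC44A1 (CTL1) had 20.03, 17.5 and 20.9 CPM in siControl and 27.5, 24.4 and 31.0 CPM in siPSF, with a log2 fold change of 0.50 ± 0.11 (adjusted p = 0.0115, edgeR). Neither gene's groups overlapped. The share of SLC44A1 in the summed SLC44 FPKM was 3.98% ± 0.62 in siControl and 7.31% ± 1.49 in siPSF. SLC27A1 (FATP1), a fatty acid transport protein, had 9.68, 10.2 and 8.80 CPM in siControl and 11.8, 12.4 and 16.3 CPM in siPSF. SLC23A3, an orphan of the ascorbate transporter family, had 5.45, 5.79 and 5.01 CPM in siControl and 7.62, 8.999 and 6.61 CPM in siPSF. They rose by 0.50 and 0.52 on the log2 scale, and 47.9% of the exonic bases of SLC23A3 lie in another gene on the same strand. Without siControl replicate 2 the calls of SLC44A1 (adjusted p = 0.074) and SLC44A2 (0.093) were lost, and SLC44A2 also without siControl replicate 3 (0.057). SLC27A1 kept its call only without siPSF replicate 1 or 2 (0.057 to 0.11 in the other fits), and SLC23A3 only without siPSF replicate 3 (0.060 to 0.11 in the others, adjusted p from edgeR). By limma on FPKM, with and without rescaling, SLC44A1, SLC27A1 and SLC23A3 lost their calls and SLC44A2 kept its call.

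The promoters of both choline transporter-like genes lie at chr9:105244401-105244650 (plus) for SLC44A1 and chr19:10602205-10602454 (plus) for SLC44A2, and are printed because the genes changed in opposite directions, with GC and CCAAT boxes in capitals.
SLC44A1: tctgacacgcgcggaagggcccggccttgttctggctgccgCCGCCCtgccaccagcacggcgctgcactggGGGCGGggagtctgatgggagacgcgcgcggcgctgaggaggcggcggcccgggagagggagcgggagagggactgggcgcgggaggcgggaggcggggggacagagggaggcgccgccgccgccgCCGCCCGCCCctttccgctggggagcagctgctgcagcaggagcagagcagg
SLC44A2: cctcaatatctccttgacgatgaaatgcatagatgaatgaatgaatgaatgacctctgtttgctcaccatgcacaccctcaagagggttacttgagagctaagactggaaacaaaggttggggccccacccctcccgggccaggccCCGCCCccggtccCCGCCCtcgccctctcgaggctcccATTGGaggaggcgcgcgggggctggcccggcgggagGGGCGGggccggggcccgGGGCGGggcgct
Each held 4 GC boxes, a pair of which overlap in SLC44A1, and SLC44A2 also held 1 CCAAT box. Of the 165 members with a promoter in the table, 73.3% held a GC box and 38.2% a CCAAT box, beside 66.3% and 34.4% of the protein-coding genes tested. A match of letters is a description of the window and not of a bound factor.

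Among 35 transporters of amino acids and neurotransmitters, 2 rose and 2 fell, with a median of -0.09 (-0.11 without siPSF replicate 2 to -0.06 without siPSF replicate 3). SLC6A6 (TauT), the taurine transporter, had 17.4, 17.4 and 16.8 CPM in siControl and 10.4, 11.3 and 13.0 CPM in siPSF. Its log2 fold change was -0.57 ± 0.11 (adjusted p = 0.00512, edgeR), with every siPSF library below siControl. SLC1A2 (EAAT2), the main glutamate transporter of astrocytes, was low here, at 2.90, 3.72 and 4.18 CPM in siControl and 2.53, 2.44 and 2.38 CPM in siPSF, a log2 fold change of -0.55 ± 0.17 (adjusted p = 0.0429). SLC36A1 (PAT1), a proton-coupled amino acid transporter of lysosomes, had 10.5, 7.99 and 9.16 CPM in siControl and 11.8, 11.8 and 12.9 CPM in siPSF. SLC7A2 (CAT2), a transporter of cationic amino acids such as arginine, had 9.47, 7.85 and 9.36 CPM in siControl and 12.5, 12.1 and 10.9 CPM in siPSF. The rises were 0.40 and 0.41 on the log2 scale. SLC1A2 and SLC36A1 kept their calls only without siControl replicate 1 (adjusted p of 0.052 to 0.14 and 0.071 to 0.21 in the other fits), and SLC7A2 only without siPSF replicate 3 (0.052 to 0.18, edgeR). The limma fits on FPKM, with and without rescaling, did not call SLC36A1 or SLC7A2 and kept the call of SLC6A6.

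The abundant amino acid transporters were not called. SLC3A2, the shared heavy chain of several exchangers and the second most abundant member at 148 FPKM in siControl, had a log2 fold change of -0.09. SLC7A5 (LAT1), its leucine-carrying partner, was at -0.26 (95% interval -0.67 to 0.14), and the glutamine transporter SLC1A5 (ASCT2) at -0.14 (95% interval -0.34 to 0.05). Of a list of 11 transporters known to respond to amino acid shortage through ATF4, 0 rose and 0 fell by edgeR, with 2 at an unadjusted p under 0.05, 1 called higher and 1 lower by DESeq2, and a median of -0.10. Their summed level was 2673 to 2757 CPM in siControl and 2384 to 2551 CPM in siPSF, with no overlap. Of 18 neurotransmitter transporters 11 were tested, 6 of them members, and SLC1A2 alone was called. SLC32A1 (VGAT), the vesicular GABA transporter, had the largest change among members not called, -0.97 with an adjusted p of 0.086 by edgeR.

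Among 25 carriers of sugars and monocarboxylates, 0 rose and 2 fell, with a median of 0.02 that took either sign, from -0.13 without siPSF replicate 3 to 0.03 without siControl replicate 2. Of these 6 had an unadjusted p under 0.05 from edgeR, and DESeq2 called 1 higher and 2 lower. SLC2A13 (HMIT; chr12:39755025-40106081), a proton-coupled myo-inositol transporter of neurons, had 6.001, 7.56 and 9.35 CPM in siControl and 4.03, 3.13 and 2.75 CPM in siPSF. Its log2 fold change was -1.21 ± 0.19 (adjusted p = 0.00137, edgeR). SLC37A2 (chr11:125063305-125090516), a sugar phosphate exchanger of the endoplasmic reticulum, had 2.08, 1.74 and 1.36 CPM in siControl and 0.825, 0.881 and 0.385 CPM in siPSF. It was thus a member of low level, under 1 CPM in every siPSF library. It fell by 1.30 on the log2 scale (SE 0.29, adjusted p = 0.0108, edgeR). The glucose transporter SLC2A1 (GLUT1), the most abundant of SLC2, was at -0.19 (95% interval -0.39 to 0.01) and was not called, nor was any of the 8 monocarboxylate transporters of SLC16 (3 at an unadjusted p under 0.05, 1 called higher by DESeq2).

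Long genes held 7 of the 14 falls among the members. Of 30 members whose gene spans 100 kb or more, 2 rose and 7 fell, with a median of -0.23, and 15 (50.0%) did not overlap between groups, beside 48.4% of the protein-coding genes of that length at 1 CPM or more. Of 173 shorter members, 12 rose and 7 fell, with a median of 0.01. The long members that fell were SLC35F3, SLC8A3, SLC2A13, SLC20A2, SLC39A11 and SLC1A2 among others, and those that rose were SLC44A1 and SLC36A1. The protein-coding genes at large were split in the same way for comparison. Of 2454 genes of 100 kb or more at 1 CPM or more, members included, 66 rose and 662 fell, with a median of -0.17, and of 10187 shorter genes 806 rose and 502 fell, with a median of 0.04. Calls covered 30.0% of the long members beside 29.7% of the long protein-coding genes. The long members' median minus the short members' was -0.24 in the fit, and -0.16, -0.18 and -0.26 in the individual siPSF libraries against the siControl mean. It was -0.12 without siControl replicate 3, -0.17 without siPSF replicate 2 and -0.093 with the limit at 50 kb.

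**Figure D4:**
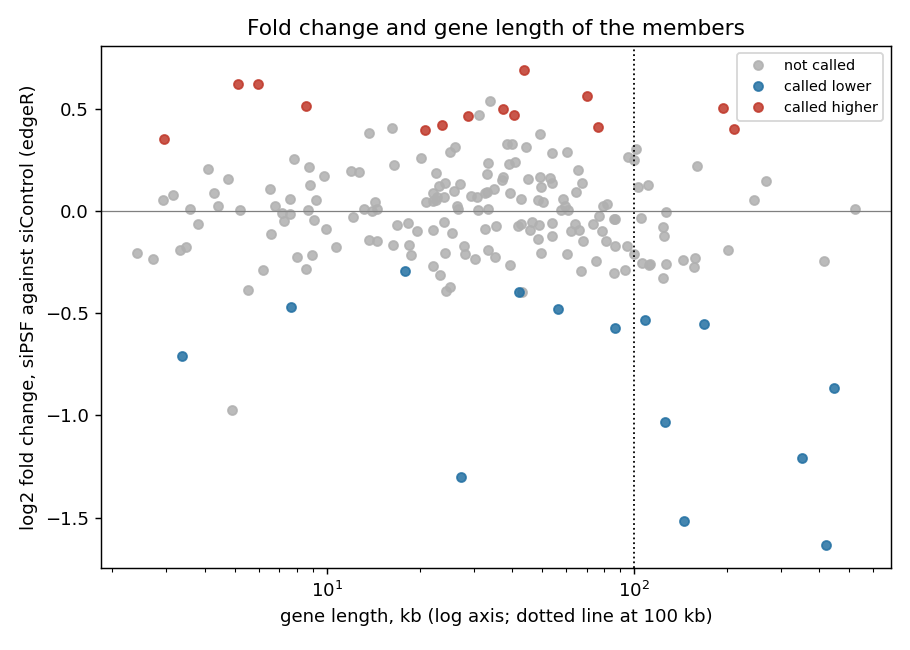
Gene length in kb on a log axis against the log2 fold change (siPSF against siControl, edgeR) of each member, coloured by call, with a dotted line at 100 kb. Of the 5 members that fell by more than 2-fold, 4 lie at 100 kb or more and SLC37A2 lies at 27.2 kb.

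For 125 of the 175 members not called, the 95% interval of the log2 fold change lay within 0.5 of 0, and the median half-width over all members was 0.25. For the other members a change of that size was not resolved. Families with no call by edgeR included SLC38, with 7 sodium-coupled neutral amino acid transporters, 0 of them at an unadjusted p under 0.05 or called by DESeq2, and SLC22, with 4 organic ion transporters, of which 1 was at an unadjusted p under 0.05 and 1 was called lower by DESeq2. The lowest members by siControl level were SLC8A1 at 1.08, SLC2A4 at 1.18 and SLC27A2 at 1.39 CPM before TMM scaling, and the genes just under the limit were SLC26A5 at 0.948, SLC38A5 at 0.916 and SLC43A3 at 0.903 CPM. Members were chosen by the siControl level alone. In siPSF, 3 members lay under 1 CPM and 7 non-members lay at 1 CPM or more.

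Some of the most abundant members of the other families were near 0. SLC35B1, which exchanges ATP and ADP across the endoplasmic reticulum membrane, had 48.4 ± 2.2 FPKM in siControl and 44.5 ± 1.1 FPKM in siPSF (SD, n = 3), and a log2 fold change of -0.05 (95% interval -0.22 to 0.13). SLC38A1 (SNAT1), a glutamine transporter of neurons, had 47.2 ± 5.8 and 42.4 ± 1.8 FPKM, at -0.04 (95% interval -0.24 to 0.16). SLC6A8, the creatine transporter, had 21.9 ± 0.9 and 20.8 ± 0.8 FPKM, at 0.0028 (95% interval -0.18 to 0.18). In these genes the interval excluded a change of 0.25 in either direction. SLC27A4 (FATP4; 0.04), SLC26A11 (0.09), SLC37A3 (0.09) and the endosomal sodium/proton exchanger SLC9A8 (0.02) also lay within 0.1 of 0.

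Others lay further from 0 without passing the threshold. SLC12A4 (KCC1), a potassium-chloride cotransporter that sets cell volume, had a log2 fold change of -0.37 (95% interval -0.69 to -0.06) and an adjusted p of 0.10 by edgeR. SLC10A4, an orphan of the bile acid transporter family found on synaptic vesicles, was at -0.29 (95% interval -0.62 to 0.04), and SLC22A17 at -0.11 (95% interval -0.32 to 0.09). SLC16A1 (MCT1), the lactate transporter, was at 0.31 (95% interval 0.04 to 0.59), SLC30A9 at 0.25 (95% interval -0.0017 to 0.50), SLC41A3 at 0.27 (95% interval 0.07 to 0.47), SLC45A4 at 0.30 (95% interval 0.0011 to 0.60) and SLC66A2 at 0.38 (95% interval 0.09 to 0.66). Their adjusted p ran from 0.072 for SLC66A2 to 0.46 for SLC22A17 by edgeR, so none passed the threshold.

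Genes that work beside the solute carriers were read out of the same fit. Of 5 sodium pump subunits tested, which set the sodium gradient, 0 rose and 0 fell by edgeR and by DESeq2, with 1 at an unadjusted p under 0.05 and a median of 0.03. Of 21 vacuolar proton pump subunits, which acidify lysosomes and vesicles, ATP6V1A rose (0.37) and 0 fell by either tool, with 3 at an unadjusted p under 0.05. Of 12 transporter partners and chaperones 0 were called by edgeR and 1 by DESeq2, with 3 at an unadjusted p under 0.05. Of 41 transporters of solute carrier type named outside the pattern, SLCO5A1 (0.67) and SLC35G2 (0.39) rose, and the prostaglandin transporter SLCO2A1 (-2.21), SLCO4A1 (-0.36) and the synaptic vesicle protein SV2C (-0.70) fell on the log2 scale, 12.2% of those tested. Of 29 ABC transporters, pumps driven by ATP, ABCA12 (1.33) and ABCG1 (0.31) rose and ABCB8 (-0.28) and ABCD2 (-0.53) fell, 13.8% of those tested, where 14.9% of all genes tested were called.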

How the data were processed

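RNA-seq of SH-SY5Y cells was analysed, 3 siControl and 3 siPSF libraries, grouped from the sample titles. The table deposited by the authors gives, for every gene in each library, a read count and FPKM. Per the study's methods, poly(A) libraries were cleared of rRNA by Bowtie 2, aligned to hg38 using TopHat and counted on RefSeq genes. The submitters' processing notes name Trimmomatic, HISAT2 2.1.0 and StringTie 2.1.3b instead, and whether counting used strand is not given in the sources used here. To make the FPKM values, the authors scaled by exon length and mapped reads. All per-sample columns were used.

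Counts were filtered with edgeR's filterByExpr (minimum count 10), which left 19694 genes, normalised by TMM (factors 0.964 to 1.053) and compared by the quasi-likelihood test of edgeR 4.0.16 (R 4.3.3), with no replicate block. Benjamini-Hochberg values were taken over the whole table, and calls were made at 0.05. The biological coefficient of variation was 12.6%, and replicate pairs had a chi-square per degree of freedom of at least 22.6, so no pair was alike within sampling noise. Errors on log2 fold changes are SE from the edgeR fit to all libraries. Errors on levels and shares are SD over the 3 libraries of a group. FPKM were tested with limma 3.58.1 on log2(FPKM + 0.5) for genes with a mean of at least 0.5 FPKM, and DESeq2 1.42.0 was an alternative. Python 3.11.15, pandas 2.3.3 and matplotlib 3.10.9 were also used. The count fit was checked on simulated data of known changes.

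Gene positions and promoters came from the RefSeq tables of GRCh38.p14 (all 203 members matched, 165 with a promoter), and exon overlaps from GENCODE annotation. Genes were named by rule: members called, with values by library for the 12 largest falls and rises, the most abundant member of each larger family, pairs of a family called in opposite directions, the neighbours of the 1 CPM limit, and genes called in the lists. The other 4 called members were given in full, and SLC25A4, SLC3A2, SLC32A1, SLC6A11 and the genes called below the limit were named, after their values were seen. Of the called members, 2 are counted but not reported here by name. Members, lists and tests were chosen with earlier results of these data known. Substrate classes were assigned by family from general knowledge.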

Additional observations from a re-analysis of the deposited data

How the results depend on the processing

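No called member took the other direction under any alternative in which it was tested, while the median over members, close to 0, took either sign. The counts of 14 higher and 14 lower members became 6 higher with log2(FPKM + 0.1) or log2(FPKM + 0.5), 3 higher and 46 lower on rescaled FPKM, and 5 and 7 at an adjusted p under 0.01. The median of 0.0031 became -0.079 with log2(FPKM + 0.1), -0.073 with log2(FPKM + 0.5) and -0.18 on rescaled FPKM. The long-minus-short difference of -0.24 became -0.19 with log2(FPKM + 0.5), -0.17 on rescaled FPKM and -0.093 with a limit of 50 kb. Leaving out the members whose exons overlap another gene, an alternative added after seeing the data, kept 100 of the 203 members. Of these 100, 6 rose and 7 fell and the median was -0.043. When each library was left out in turn, 6 to 16 members rose and 9 to 16 fell, the median ran from -0.026 to 0.0020 and the difference from -0.25 to -0.12. The called share in those fits ran from 7.39% to 15.3% of the members, beside 7.54% to 15.8% of all genes tested. Causes were not tested. Of the 26 called members with a value in the FPKM fits, 18 kept their call on log2(FPKM + 0.5), 6 higher and 12 lower. On rescaled FPKM 15 kept it, 3 higher and 12 lower.

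The replicate numbers showed no sign of pairing the samples. Each gene's deviations of log2 CPM from its group mean correlated at -0.02, 0.06 and 0.06 between same-numbered libraries. With a replicate block 15 members rose and 15 fell, 26 of them shared with the fit without it.

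With 3 libraries a group the median 95% half-width was 0.25 on the log2 scale, and all p-values measure the spread between cultures given 1 siRNA sequence.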

Other observations

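Of 44 solute carrier genes tested below the 1 CPM limit, 6 rose (13.6%) and 0 fell by edgeR, with 14 at an unadjusted p under 0.05. Of all genes tested, 6.65% rose and 8.27% fell by edgeR, and 14.9% were called in either direction. DESeq2 called 7 of the 44 higher and 0 lower. The rises by edgeR were in SLC6A17, a vesicular amino acid transporter of neurons (0.357 to 1.21 CPM, log2 fold change 1.76), SLC12A3, the sodium-chloride cotransporter of the kidney (0.548 to 1.47 CPM, 1.41), SLC22A7 (0.450 to 1.18 CPM, 1.39), SLC5A11 (0.276 to 0.656 CPM, 1.25), SLC26A1 (0.512 to 1.06 CPM, 1.04) and SLC34A3 (0.834 to 1.61 CPM, 0.96). These genes were chosen by a low siControl level, so their direction is a description and not a result.

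The 2 deposited units gave different changes for some members. SLC6A11, a GABA transporter, was at -0.08 on the log2 scale from counts and at -0.39 from the ratio of mean FPKM, the widest gap among the members, whose median difference was -0.079.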
